A study of Mus musculus with 4 samples.

Results

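The endoplasmic reticulum (ER) folds, checks and exports the proteins that a cell secretes or places in its membranes, and 32 genes of that machinery were followed here in macrophages from the peritoneal cavity of mice. They are the rows of the deposited count tables whose symbol is on a list of ER chaperones, genes of ER-associated degradation, the translocon and the sensors of the unfolded protein response. All 32 were found among the 24625 genes counted, and all 32 passed the filter on low counts that left 12747 genes for testing. Mice of the high-fat group (2 libraries) had eaten a diet with 60% of its energy as fat for 12 weeks, and mice of the control group (2 libraries) a control diet, given as standard chow in the study's design text, for the same 12 weeks. All mice were C57BL/6 and all had received 3% thioglycollate medium, an irritant that draws macrophages into the cavity, 4 days before the cells were taken. The libraries were made from total RNA after removal of ribosomal RNA, and both ends of each fragment were read. Nothing in the labels ties a library to a single animal or to a pool, so every p-value below measures the spread between these libraries only, which may be technical.

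Proteins enter the ER through the Sec61 channel, are bound by Hsp70 and Hsp90 chaperones or by lectins that read their sugar chains, gain disulphide bonds from protein disulphide isomerases, and are sent back to the cytosol for destruction where folding fails. When unfolded proteins build up, the membrane sensors IRE1 (Ern1), PERK (Eif2ak3) and ATF6 start the unfolded protein response, which slows translation and turns on genes of this machinery. Lipid-loaded macrophages are a well-known setting of that response. Part of its control is exerted after transcription, by splicing of Xbp1 RNA, by cleavage of ATF6 protein and by phosphorylation, and counts per gene show none of these steps.

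No member passed the threshold, an adjusted p of 0.05 over all 12747 genes in edgeR's quasi-likelihood test of high-fat over control diet, against 0.322% of all genes called higher and 0.29% called lower. The 32 log2 fold changes ran from -0.52 for Syvn1 to 0.38 for Manf, with a median of 0.076, beside a median of -0.0054 over all kept genes; the members' median was 0.045 without control replicate 1 and 0.14 without control replicate 2. Of the members 24 lay above 0, where 49.2% of all genes did. In 14 members both high-fat libraries lay above both control libraries and in 3 both lay below, while such separation was seen in 26.1% of all genes upward and 24.9% downward. At an unadjusted p under 0.05 there were 5 higher members (background 8.55%) and 3 lower members (background 8.45%). The 95% interval of the log2 fold change lay between -1 and 1 for all 32 members and between -0.5 and 0.5 for 23 of them, so a doubling or a halving lay outside the interval of each member. These intervals are not adjusted for the number of genes, and in bulk RNA fewer cells of a type cannot be told apart from less RNA per cell.

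**Figure D1:**
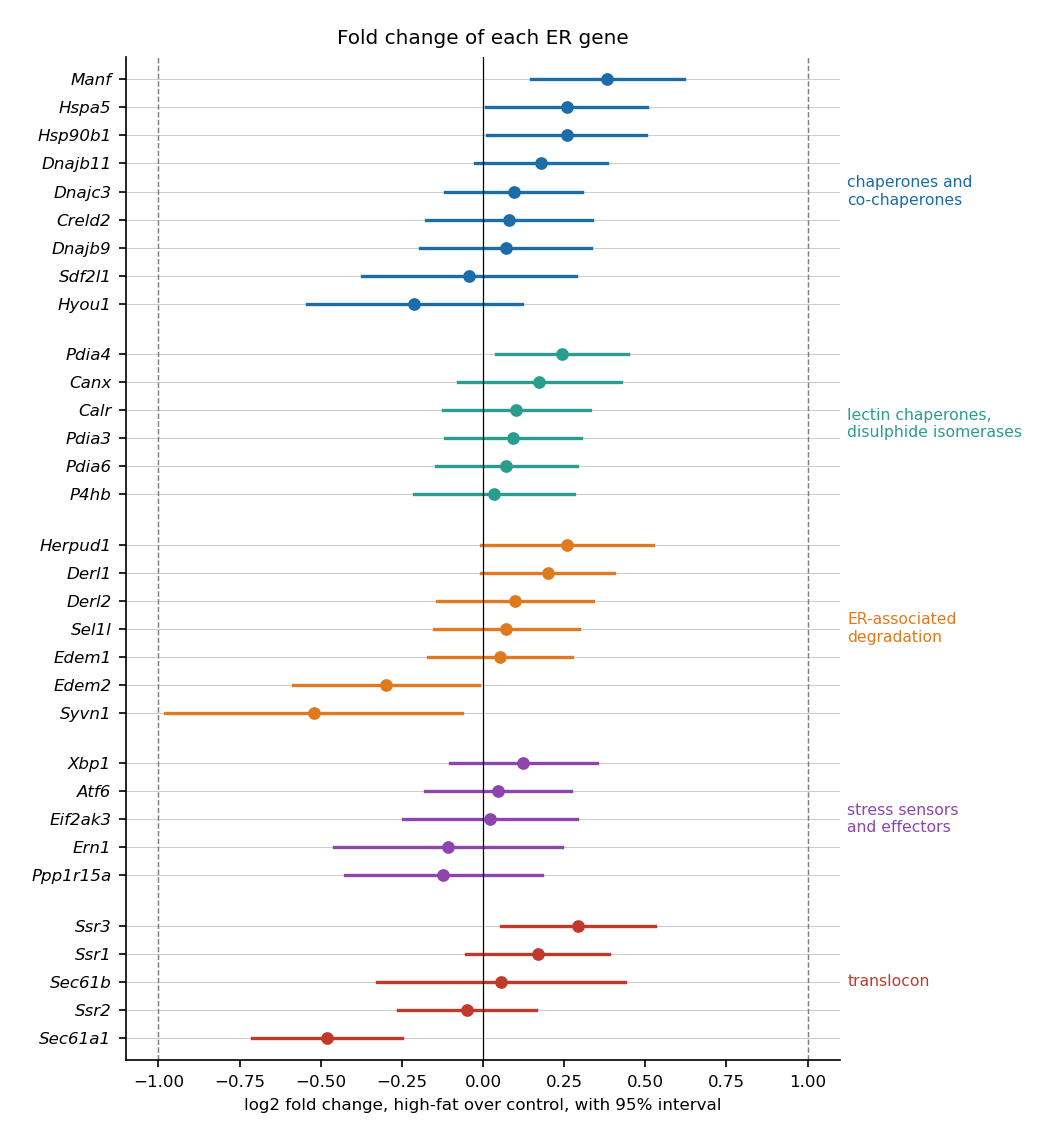
Log2 fold change of each ER gene, high-fat over control diet, with its 95% interval from edgeR's quasi-likelihood fit (2 libraries per diet); genes are grouped by role and ordered by fold change, and the dashed lines mark a log2 fold change of -1 and 1. All intervals stay inside the dashed lines, with Manf at 0.38 as the highest value and Syvn1 at -0.52 as the lowest.

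Each library held between 39347347 and 45658551 counts in genes, and each member 197 to 52148 counts per library. Their spread between the 2 libraries of a diet had a median coefficient of variation of 4.68% on high-fat diet and 4.5% on control diet. It was under 10% for 26 of the 32 members on high-fat diet and for 25 on control diet. On control diet it reached 24.4% for Syvn1 and 23.2% for Sec61b. Macrophage identity genes were abundant in every library, with Lyz2, encoding lysozyme, at 16400 and 20990 CPM on high-fat diet and 22930 and 22090 CPM on control diet, and Cd68, a lysosomal membrane protein, at 1239 and 1100 CPM against 1128 and 999 CPM. Of 15 macrophage markers listed, 14 had log2 fold changes below 0, and Cd68 was the 1 above 0 (0.14). CPM is used here for a gene's count scaled to the library's TMM-normalized total.

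The levels of the members, compared per kilobase of exon (RPKM), spanned more than 2 orders of magnitude. Hspa5, encoding the Hsp70 chaperone BiP that also holds the stress sensors inactive, had the highest level of all, at 427 ± 2.26 RPKM on high-fat diet and 357 ± 19.2 RPKM on control diet (mean ± SD of 2 libraries per diet, here and for the RPKM values that follow). Hsp90b1, the ER form of Hsp90, averaged 325 ± 8.77 and 272 ± 16.8 RPKM. The lectin chaperones Calr (267 ± 6.65 RPKM on high-fat diet, 249 ± 6.86 on control diet) and Canx (272 ± 13.6 and 241 ± 7.42) and the disulphide isomerase P4hb (219 ± 17.5 and 214 ± 9.62) came next. Within each diet the RPKM ranges of Calr and Canx overlapped each other. The lowest 4 levels were those of Ppp1r15a, Ern1, Eif2ak3 and Syvn1: Ppp1r15a averaged 6.53 ± 0.354 RPKM on high-fat diet and 7.11 ± 0.615 on control diet, Ern1 4.7 ± 0.626 RPKM on high-fat diet and 5.06 ± 0.86 on control diet, Eif2ak3 4.31 ± 0.0283 and 4.24 ± 0.070, and Syvn1 1.33 ± 0.029 and 1.91 ± 0.465. Xbp1, whose protein is a transcription factor made after IRE1 cuts its RNA, averaged 107 ± 3.96 RPKM on high-fat diet and 98.1 ± 7.55 RPKM on control diet, where it ranked eighth.

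**Figure D2:**
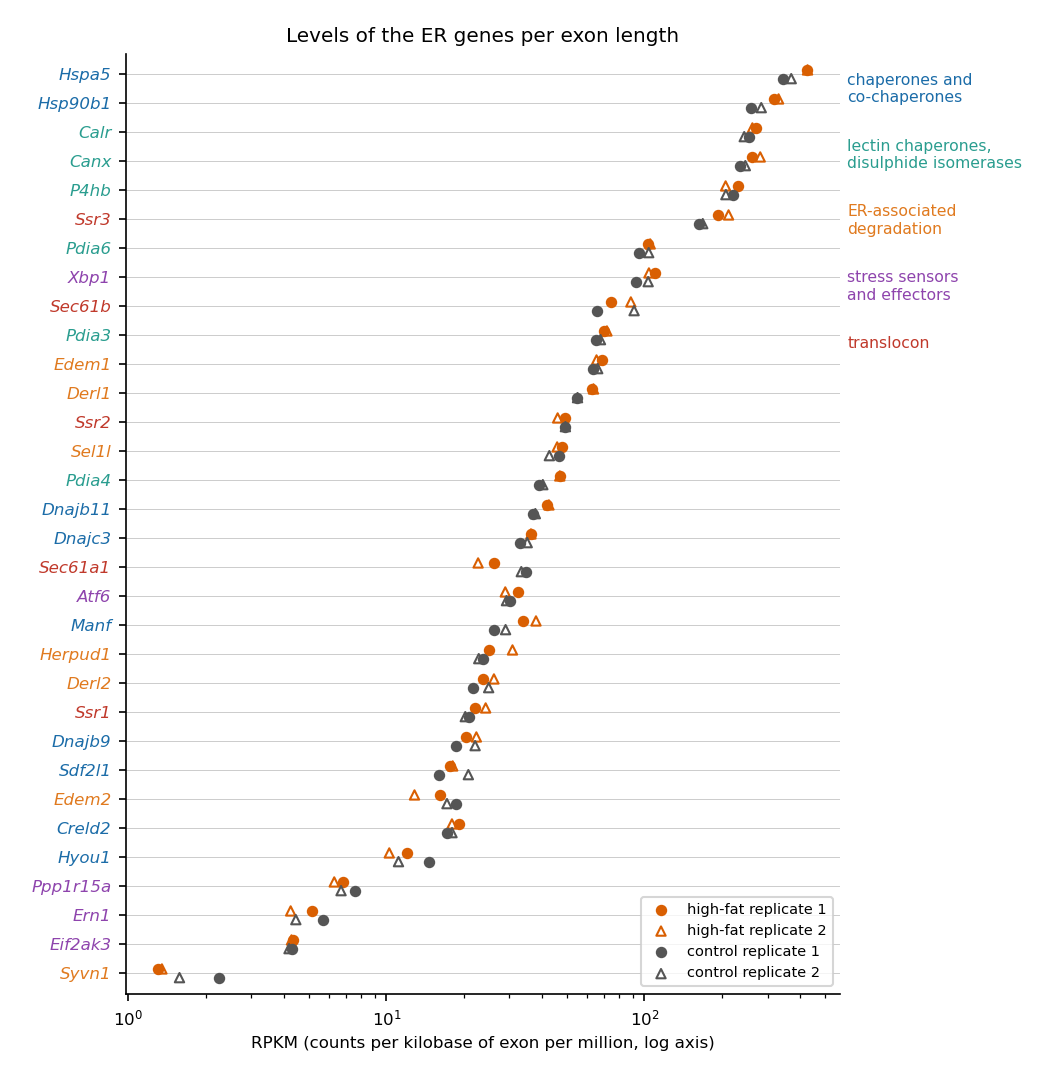
Level of each ER gene in each library as CPM per kilobase of exon (RPKM, log axis), ordered by the mean of the control libraries; circles and triangles are replicates 1 and 2, orange is high-fat and grey is control diet, and gene names are coloured by role. Hspa5 lies at the top and Syvn1 at the bottom, and the distance between genes is far larger than the distance between diets.

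A DNA element known from several genes of this response is the ER stress response element (ERSE), bound by ATF6 and XBP1: CCAAT and CCACG with 9 free bases between them. A shorter form, ERSE-II, has ATTGG and CCACG with 1 free base between. Promoter windows from RefSeq (GRCm38.p6, 250 bases before to 50 after a gene's start) were matched by symbol for 26 of the 32 members, and both strands were searched. ERSE was found in 8 of the 26 members, against 39 of 32851 windows of all genes (0.119%), and ERSE-II in 2 of 26, against 12 windows (0.0365%). The core of the XBP1-bound unfolded protein response element, TGACGTGG, and the ATF4-bound amino acid response element TGATGCAAT were in the windows of 0 members, and in 0.676% and 0.192% of all windows. Several of these genes are textbook targets found through such elements, so the shares only describe the list. The matches are shown in the 5′ to 3′ direction of the motif, with its fixed letters in capitals, to let the spacers be compared; no motif overlapped another in these windows.

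Hspa5 ERSE, chr2:34772025-34772043 (plus strand): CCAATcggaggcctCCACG
Hsp90b1 ERSE, chr10:86705638-86705656 (minus strand): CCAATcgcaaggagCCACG
Hsp90b1 ERSE, chr10:86705533-86705551 (plus strand): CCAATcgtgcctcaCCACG
Canx ERSE, chr11:50325800-50325818 (minus strand): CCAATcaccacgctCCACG
Calr ERSE, chr8:84847075-84847093 (plus strand): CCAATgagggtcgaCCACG
Dnajc3 ERSE, chr14:118937827-118937845 (plus strand): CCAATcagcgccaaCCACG
Pdia6 ERSE, chr12:17266491-17266509 (plus strand): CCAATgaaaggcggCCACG
Creld2 ERSE, chr15:88819520-88819538 (minus strand): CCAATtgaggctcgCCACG
Syvn1 ERSE, chr19:6046532-6046550 (plus strand): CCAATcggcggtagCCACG
Herpud1 ERSE-II, chr8:94386377-94386387 (plus strand): ATTGGgCCACG
Dnajb11 ERSE-II, chr16:22857852-22857862 (plus strand): ATTGGcCCACG

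Whole windows are shown for 4 of these genes, because each holds an element while their log2 fold changes lie on both sides of 0: Hspa5, Hsp90b1 and Herpud1 at 0.26 each and Syvn1 at -0.52, none of which passed the test. Capitals mark the full ERSE or ERSE-II match, spacer included.

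Hspa5 promoter, chr2:34771840-34772139 (plus strand): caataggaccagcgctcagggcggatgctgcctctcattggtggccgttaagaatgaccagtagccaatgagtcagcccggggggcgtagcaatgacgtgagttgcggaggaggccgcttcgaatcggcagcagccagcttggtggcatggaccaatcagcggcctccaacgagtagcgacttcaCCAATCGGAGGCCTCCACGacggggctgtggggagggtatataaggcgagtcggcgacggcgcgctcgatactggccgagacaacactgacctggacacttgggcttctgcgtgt
Hsp90b1 promoter, chr10:86705395-86705694 (minus strand): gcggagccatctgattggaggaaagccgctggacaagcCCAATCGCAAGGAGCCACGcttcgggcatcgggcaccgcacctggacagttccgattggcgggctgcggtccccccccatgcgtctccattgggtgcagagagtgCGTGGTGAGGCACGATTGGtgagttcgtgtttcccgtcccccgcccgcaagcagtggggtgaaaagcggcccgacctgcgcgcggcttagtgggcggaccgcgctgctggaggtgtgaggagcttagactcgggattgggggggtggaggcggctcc
Herpud1 promoter, chr8:94386179-94386478 (plus strand): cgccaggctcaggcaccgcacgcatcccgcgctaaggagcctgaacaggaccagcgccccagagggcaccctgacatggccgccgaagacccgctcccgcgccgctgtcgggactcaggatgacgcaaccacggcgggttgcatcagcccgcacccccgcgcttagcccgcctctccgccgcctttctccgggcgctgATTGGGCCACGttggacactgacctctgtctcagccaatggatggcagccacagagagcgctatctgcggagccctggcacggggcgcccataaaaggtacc
Syvn1 promoter, chr19:6046326-6046625 (plus strand): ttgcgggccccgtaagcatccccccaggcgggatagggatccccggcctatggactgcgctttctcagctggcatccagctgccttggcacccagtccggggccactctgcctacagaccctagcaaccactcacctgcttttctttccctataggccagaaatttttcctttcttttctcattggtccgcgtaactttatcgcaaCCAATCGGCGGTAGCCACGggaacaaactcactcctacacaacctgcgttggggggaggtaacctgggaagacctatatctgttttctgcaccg

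Over the 10 members with either element the median log2 fold change was 0.14, with 9 values above 0, 7 members separated upward and 1, Syvn1, downward. The 16 members whose window held neither had a median of 0.062, with 12 above 0, 5 separated upward and 1 downward. The 6 members with no window in the table, Atf6, Derl1, Hyou1, Manf, Sec61a1 and Ssr2, had a median of -0.0008. Over all kept genes 49.2% lay above 0, 26.1% were separated upward and 24.9% downward. The same shares stand beside the counts per role below. The groups with and without an element were described without a test and without regard to GC content.

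Among the 9 chaperones and co-chaperones, 7 log2 fold changes lay above 0, with a median of 0.094, and 5 members were separated upward. Manf encodes a secreted stress protein that binds BiP. Its level was 74.5 and 83.8 CPM in the high-fat libraries and 57.5 and 63.9 CPM in the control libraries. Both high-fat libraries lay above both control libraries, for a log2 fold change of 0.38 ± 0.10 (SE; 95% interval 0.15 to 0.62), the highest of all members. It missed the threshold in edgeR's quasi-likelihood test (adjusted p = 0.135).

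Hspa5 stood at 1113 and 1122 CPM on high-fat diet, against 899 and 970 CPM on control diet, and Hsp90b1 at 879 and 914 CPM, against 717 and 783 CPM. The diets' libraries did not overlap for either gene. Their log2 fold changes were alike, 0.26 ± 0.11 each, with 95% intervals of 0.010 to 0.51 and 0.011 to 0.50, and neither passed in edgeR's quasi-likelihood test (adjusted p = 0.281 and 0.279). BiP's co-chaperones of the DnaJ family had smaller values: 0.18 for Dnajb11, 0.094 for Dnajc3 and 0.070 for Dnajb9. Dnajb11 and Dnajc3 were separated upward, and Dnajb9 overlapped. Creld2, an ER stress-induced protein with a disulphide isomerase motif, had a log2 fold change of 0.081, and Sdf2l1, which works in a complex with the Dnajb11 protein, -0.044. Hyou1, the exchange factor that recharges BiP, lay at -0.21 ± 0.14, with 53.2 and 45.5 CPM on high-fat diet and 65.0 and 49.4 CPM on control diet, so its diets overlapped. Its value was -0.011 without control replicate 1 and -0.40 without control replicate 2.

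All 6 lectin chaperones and disulphide isomerases had log2 fold changes above 0, from 0.034 for P4hb to 0.24 for Pdia4, with a median of 0.097. Pdia4, an isomerase with several thioredoxin-like domains, had 116.3 and 116.6 CPM in the high-fat libraries, above its 96.6 and 100.2 CPM in the control libraries (log2 fold change 0.24 ± 0.091; adjusted p = 0.233, edgeR's quasi-likelihood test). Canx, the membrane-bound lectin, stood at 1123 and 1206 CPM with high-fat diet and 1010 and 1056 CPM with control diet, and Calr, its soluble relative, at 528 and 509 CPM and 492 and 474 CPM. Both were separated upward by narrow margins, with log2 fold changes of 0.17 ± 0.11 and 0.10 ± 0.10. Pdia3, the isomerase that these lectins recruit, had a value of 0.092 and was separated too, while Pdia6 (0.072) and P4hb (0.034) overlapped.

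**Figure D3:**
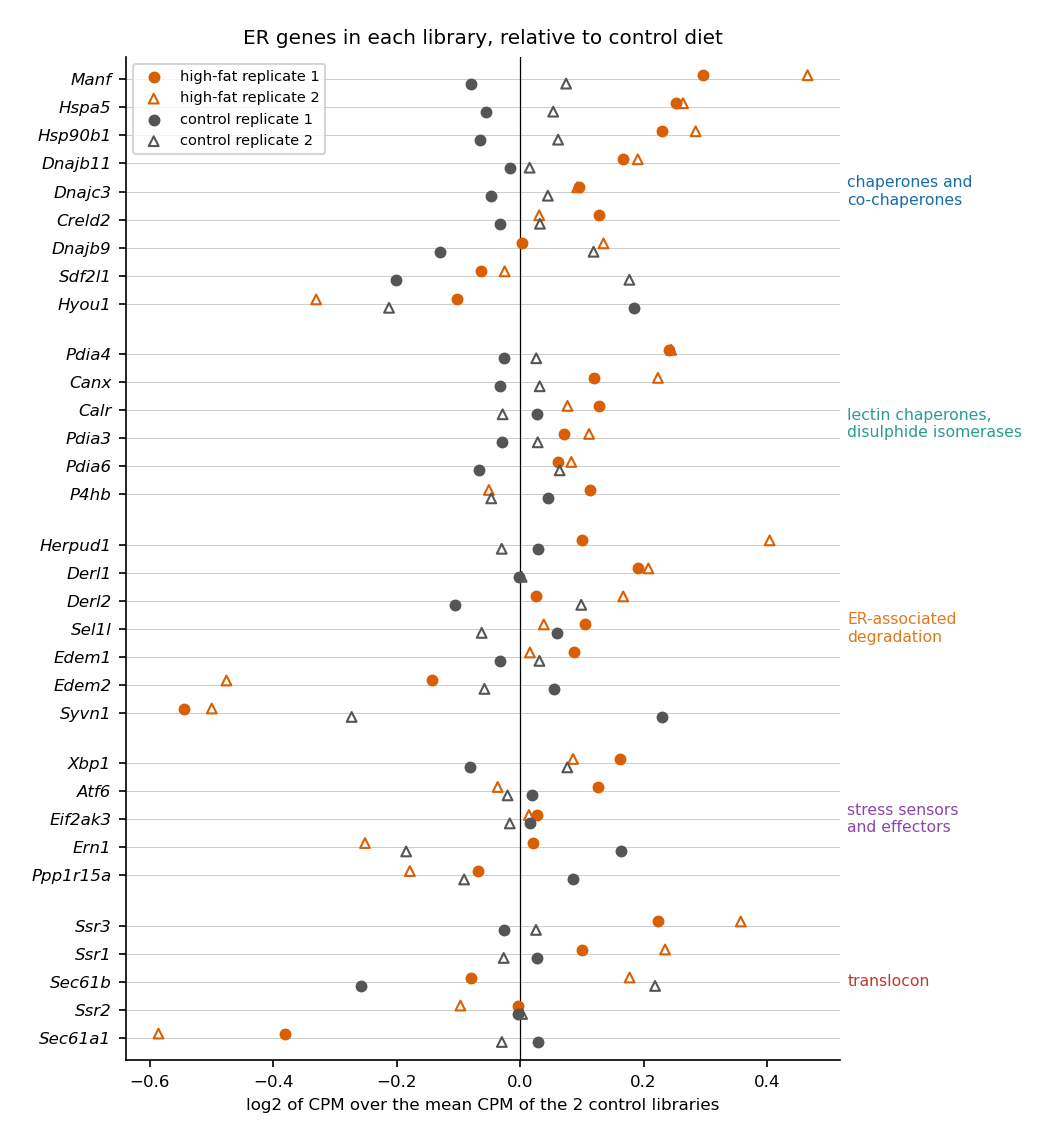
Each ER gene in each library, as the log2 of its CPM over the mean CPM of the 2 control libraries; circles and triangles are replicates 1 and 2, orange is high-fat and grey is control diet. Orange points lie right of both grey points in 14 genes, among them Manf, Hspa5, Hsp90b1, Pdia4 and Ssr3, and left of both in Sec61a1, Edem2 and Syvn1.

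Genes of ER-associated degradation, in which misfolded proteins are drawn out of the ER and marked with ubiquitin, went both ways. Of 7 members 5 lay above 0, with a median of 0.072. Syvn1 encodes HRD1, the ubiquitin ligase at the centre of this route. It had 4.78 and 4.93 CPM on high-fat diet, against 8.17 and 5.77 CPM on control diet, or 222 and 197 counts against 329 and 224. The high-fat libraries were lower than both control libraries, but the control libraries lay far apart. Its log2 fold change was -0.52 ± 0.20 (95% interval -0.98 to -0.066), with an adjusted p of 0.249 in edgeR's quasi-likelihood test. Without control replicate 1 it was -0.26. The exons of Syvn1 overlap those of Mrpl49 on the other strand by 89 bases, those of Derl2 overlap Mis12 by 231 bases and those of Pdia6 overlap Atp6v1c2 by 50 bases, and the sources used here do not say whether counting used the strand. Edem2, which trims sugars from proteins bound for degradation, had 37.1 and 29.5 CPM, against 42.6 and 39.4 CPM on control diet (-0.30 ± 0.13, adjusted p = 0.281). For Edem2, leaving out replicate 2 of the high-fat diet gave -0.15, and leaving out replicate 1 gave -0.47.

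Herpud1, an ER membrane protein of the HRD1 complex and whose promoter window is printed above, had 46.7 and 57.6 CPM on high-fat diet and 44.4 and 42.7 CPM on control diet. The log2 fold change was 0.26 ± 0.12 (adjusted p = 0.299, edgeR's quasi-likelihood test), and high-fat replicate 2 carried most of it: the value was 0.098 without that library and 0.41 without high-fat replicate 1. Derl1, a channel-forming partner of the complex, was the most even member here, at 197 and 200 CPM against 173 and 173 CPM (0.20 ± 0.091). Sel1l, the adaptor of HRD1, Edem1, a relative of Edem2, and Derl2 had log2 fold changes of 0.072, 0.052 and 0.098, and their diets overlapped.

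The 5 sensors and effectors had log2 fold changes from -0.12 to 0.12, with a median of 0.021. Xbp1 stood at 247 and 234 CPM with high-fat diet and 208 and 232 CPM with control diet, separated by less than 2 CPM at the nearest libraries (log2 fold change 0.12 ± 0.10). Ppp1r15a, encoding the phosphatase subunit GADD34 that ends the translation block, had 15.8 and 14.6 CPM, against 17.6 and 15.6 CPM on control diet (-0.12 ± 0.13), and Ern1 had 20.4 and 16.9 CPM, against 22.6 and 17.7 CPM (-0.11 ± 0.16). Neither was separated. Without control replicate 1 the value was 0.037 for Xbp1 and -0.043 for Ppp1r15a, and without control replicate 2 it was 0.20 for Xbp1 and -0.21 for Ppp1r15a. Atf6 and Eif2ak3 lay at 0.047 and 0.021, and the 95% interval for Eif2ak3 ran from -0.25 to 0.29. The 95% intervals of all 5 included 0 and stayed between -0.5 and 0.5.

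The translocon held the member with the smallest p. Sec61a1 encodes the pore of the channel and lies at chromosome 6: 88453601 to 88468794 (mm9, minus strand, 12 exon blocks). It had 79.4 and 68.9 CPM in the high-fat libraries, against 105.5 and 101.3 CPM in the control libraries. Both high-fat libraries were well below both control libraries, for a log2 fold change of -0.48 ± 0.10 (95% interval -0.71 to -0.25; adjusted p = 0.0736, edgeR's quasi-likelihood test). The direction was the same in all 13 alternative fits, with values from -0.58 to -0.38. Sec61b, a small subunit of the same channel, had 41.0 and 48.9 CPM, against 36.2 and 50.3 CPM (0.055 ± 0.16), and its diets overlapped. Ssr3, a subunit of the translocon-associated TRAP complex, stood at 557 and 611 CPM, above 468.5 and 486 CPM on control diet (0.29 ± 0.11, adjusted p = 0.219), and Ssr1 at 205 and 226 CPM, above 195 and 188 CPM (0.17 ± 0.098). Ssr2, a further TRAP subunit, had 58.2 and 54.5 CPM and 58.2 and 58.5 CPM, a log2 fold change of -0.049.

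Over the 13 alternatives the calls of 2 members, Sec61a1 and Manf, depended on the fit. DESeq2 called Sec61a1 (adjusted p = 0.00774; background 1.57% of genes called lower), as did edgeR with no filter on low counts (adjusted p = 0.00636; 1.54%) and edgeR without high-fat replicate 1 (adjusted p = 0.00451; 2.98%). Manf was called higher with no filter (adjusted p = 0.0433; 1.47% of genes) and without high-fat replicate 1 (adjusted p = 0.0335; 3.39%). Over all alternatives the adjusted p ran from 0.00451 to 0.249 for Sec61a1 and from 0.0335 to 0.508 for Manf, highest for both without control replicate 1. By limma-voom 0 members were called. Without high-fat replicate 1 that diet has a single library, which is then assumed to vary like the control libraries.

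Transcript GC content moved with the fold changes. Over the 12156 kept genes with a GC value the log2 fold change was lower at higher GC content (Pearson r = -0.255, Spearman rho = -0.381 across genes, which share the 4 libraries and are not independent), and over the 32 members, whose GC content ran from 40.6% to 57.6%, r was -0.561 and rho -0.56. Over all kept genes with a GC value, the median log2 fold change was 0.12 at 40% to 42% GC, 0.036 at 48% to 50% and -0.17 at 56% to 58%. All 16 members of lower GC content (from 40.6%) lay above 0, with a median log2 fold change of 0.10, whereas 8 of the 16 members of higher GC content (50.6% to 57.6%) did, with a median of -0.011. In a fit that takes out the trend of both GC content and exon length, chosen after seeing the data, both medians became 0.046, the median of all members was 0.046 and 0 members passed. There Hspa5 had a log2 fold change of 0.16, Hsp90b1 0.12, Pdia4 0.14, Canx 0.057, Ssr3 0.12 and Syvn1 -0.31, each nearer to 0 than its value above, and Sec61a1 was the lowest member. Manf (0.35, adjusted p = 0.126) and Sec61a1 (-0.41, adjusted p = 0.0587) moved less. Others moved away from 0 without a change of sign: Herpud1 (0.27), Creld2 (0.13), P4hb (0.084), Xbp1 (0.14), Sec61b (0.10) and Eif2ak3 (0.040).

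**Figure D4:**
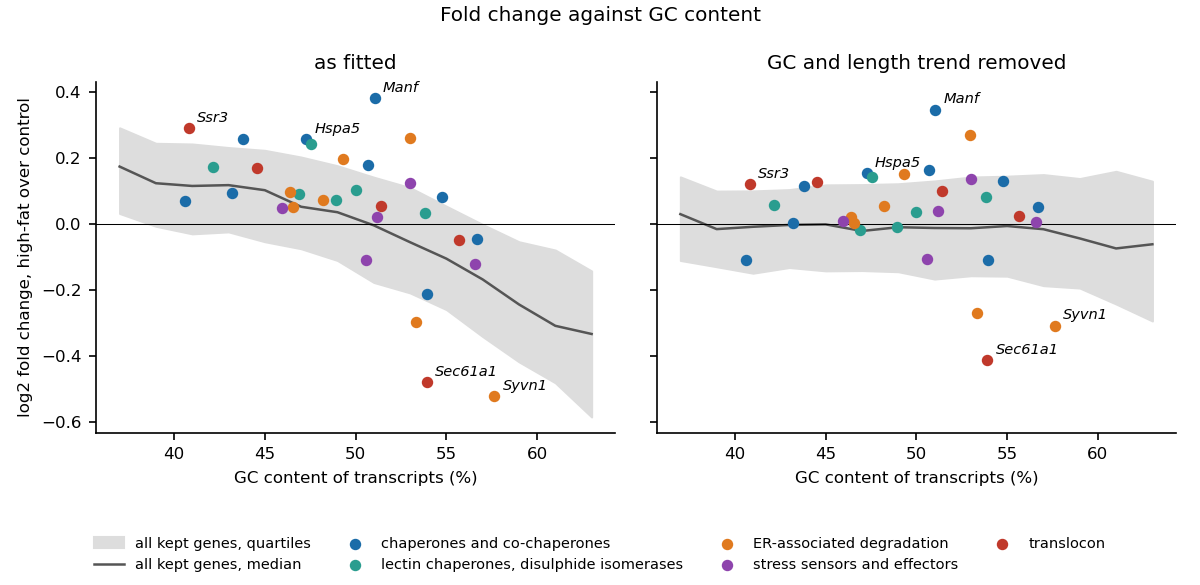
Log2 fold change, high-fat over control, against the GC content of each gene's transcripts, as fitted (left) and after removing the trend of GC content and exon length (right); points are the 32 ER genes coloured by role, the line and band are the median and quartiles of all kept genes in bins of 2% with at least 50 genes. On the left the line falls as GC content grows and the ER genes follow it; on the right the line is near 0 and Manf and Sec61a1 are among the genes that still lie outside the band.

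The members together took up 0.799% and 0.781% of gene counts in the high-fat libraries and 0.709% and 0.712% in the control libraries, to which Canx, Hspa5 and Hsp90b1 gave the most. Markers of other cells also differed in level between the same libraries. A list of 17 mesothelial and fibroblast markers summed to 177 and 88.5 CPM on high-fat diet and 22.2 and 29.5 CPM on control diet, with all 13 kept genes above 0 and a median log2 fold change of 2.02. It includes Pdgfra, a growth factor receptor, at 18.5 and 8.61 CPM, against 1.86 and 2.01 CPM, and Col1a1, a collagen chain, at 1.08 and 0.776 CPM, against 0.273 and 0.18 CPM. Plasma cell and B cell markers (16 genes, median 0.71 over 15 kept) summed to 427 and 499 CPM, against 369 and 318 CPM, of which Sdc1, also expressed by macrophages, made 249 and 181 CPM, against 174 and 141 CPM. Plasma cells are rich in ER, and of their genes Igj, the joining chain of antibodies, had 170 and 122 counts, against 24 and 47 counts on control diet (log2 fold change 1.90, adjusted p = 0.0476 in edgeR's quasi-likelihood test). Mzb1, an ER protein of plasma cells, had 76 and 168 counts, against 55 and 53 counts, and the receptor gene Tnfrsf17 had 4 and 4 counts, against 2 and 2 counts. Irf4 (22.2 and 47.7 CPM, against 26.3 and 23.1 CPM) and Prdm1 (34.5 and 42.0 CPM, against 36.4 and 33.5 CPM) overlapped between diets. Of the 15 kept plasma and B cell markers 4 were separated upward, 1 (Cd22, log2 fold change -0.34) downward, and 10 overlapped. Over all kept genes 26.1% were separated upward and 24.9% downward. Neutrophil markers (14 genes in the files, median -0.81 over 10 kept) summed to 82.0 and 68.4 CPM, against 113 and 117 CPM, with Elane at 0 counts in all libraries. Dendritic cell markers (12 genes, median -1.20 over 11 kept, 8 below 0) summed to 27.6 and 43.6 CPM, against 35.2 and 35.4 CPM. Of this sum Ccl22, with a log2 fold change of 0.34, made 17.2 and 27.3 CPM, against 17.9 and 17.3 CPM. Macrophage markers (15 genes, median -0.27, 14 below 0) summed to 21200 and 25660 CPM, against 28490 and 27540 CPM. Lyz2 made 16400 and 20990 CPM of that sum, against 22930 and 22090 CPM. Of all these markers edgeR's quasi-likelihood test called Lum (mesothelial and fibroblast) and Igj (plasma cell) higher, and Csf3r and Mmp9 (neutrophil), Cd209a (dendritic) and Mertk (macrophage) lower. Each label names the list a gene came from, and bulk counts do not show which cells expressed it. The part of other cells, or of GC content, in the members' values was not tested.

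Of 90 other genes of the same machinery, listed by function, 88 were kept and 0 passed in edgeR's quasi-likelihood test, against 11 higher and 2 lower at an unadjusted p under 0.05; DESeq2 and limma-voom called 0. Their median log2 fold change was 0.037, with 52 above 0, 28 separated upward and 19 downward. Over all kept genes 49.2% lay above 0, 26.1% were separated upward and 24.9% downward. At that unadjusted p 8.55% of all genes were higher and 8.45% lower. The same shares stand beside the counts of each list below. Among 25 further folding genes the median was 0.020, with 8 separated upward and 6 downward. Fkbp14, a prolyl isomerase known for collagen folding, had 0.819 and 0.676 CPM, against 0.323 and 0.155 CPM, or 38 and 27 counts against 13 and 6 (log2 fold change 1.63 ± 0.46, adjusted p = 0.144). It was low in all libraries. Erp44, which returns escaped ER proteins from the Golgi, had 90.6 and 101.8 CPM, against 73.8 and 83.1 CPM (0.29 ± 0.11, adjusted p = 0.217).

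In ER-associated degradation 19 of 20 further genes were kept, with a median of 0.055, 7 separated upward and 3 downward; Ube2g2 and Ubxn4 had the smallest p. The ubiquitin-conjugating enzyme gene Ube2g2 had 41.7 and 39.1 CPM, against 36.1 and 30.9 CPM (0.27 ± 0.11, adjusted p = 0.273, edgeR's quasi-likelihood test). Ubxn4, encoding an ER membrane protein, had 139 and 145 CPM, against 124 and 121 CPM (0.21 ± 0.092, adjusted p = 0.285). The 26 further genes of translocation and glycosylation, 25 of them kept, had a median of 0.040, with 6 separated upward and 4 downward. Stt3a, a catalytic subunit of the enzyme that adds sugar chains to entering proteins, had 359 and 353 CPM, against 282 and 301 CPM (0.29 ± 0.097, adjusted p = 0.198), and Sec11c, a signal peptidase subunit, 167 and 156 CPM, against 115 and 143 CPM (0.32 ± 0.12, adjusted p = 0.226).

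Stress signalling beyond the members was mixed. Its 19 genes had a median of -0.0055, with 7 separated upward and 6 downward. Eif2s1, the alpha subunit of eIF2 that PERK phosphorylates, had 349 and 382 CPM, against 269 and 313 CPM (0.33 ± 0.11, adjusted p = 0.203, edgeR's quasi-likelihood test). Atf4, the transcription factor whose translation that step favours, stood at 332 and 328 CPM with high-fat diet, above 281 and 272 CPM with control diet (0.26 ± 0.095, adjusted p = 0.231). At an unadjusted p under 0.05 in that test 2 genes, Eif2s1 and Atf4, were higher and 2, Wfs1 and Atf3, lower. Wfs1 had 54.1 and 52.0 CPM, below 86.6 and 59.3 CPM (-0.46 ± 0.17, adjusted p = 0.246). Atf3 had 467 and 527 CPM, below 595 and 594 CPM (-0.26 ± 0.11, adjusted p = 0.272). Wfs1, Atf3, Ddit3, Trib3 and Chac1 were picked for mention after their values were seen. Ddit3, encoding CHOP, a target of ATF4 in ER stress, had 16.5 and 15.7 CPM, below 19.5 and 18.7 CPM (-0.24 ± 0.12, adjusted p = 0.353). Trib3 went the other way, at 1.83 and 1.95 CPM, above 1.64 and 1.65 CPM (0.20 ± 0.26). Chac1 had 1.185 and 0.501 CPM, against 0.696 and 0.309 CPM (0.75 ± 0.53), and its diets overlapped. Both were low in all libraries. Of the 19 genes 9 lay above 0 and 10 below.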

How the data were processed

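Per the labels' protocols, total RNA without rRNA was read from both ends. The authors deposited unnormalized counts, 1 table of whole numbers per library, and a file of mm9 gene models. The submitters' processing notes name HTSeq, TopHat2 2.0.10 and Cufflinks 2.1.1 and the build mm9, without settings such as strand. Summary lines that name no gene were left out of totals and tests: of each table's total, 37.5% to 48.5% stood for reads aligned at several places, which are thus in no gene's count, 13.5% to 15.0% for reads in no gene and 0.664% to 0.823% for reads in several genes. Chi-square statistics per degree of freedom of 28.9 (high-fat) and 27.7 (control) between the libraries of a diet were far above sampling noise.

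edgeR 4.0.16 in R 4.3.3 was run on the whole table: filterByExpr (minimum count 10, minimum total 15), TMM, robust quasi-likelihood fit with diet as the only term (2 residual degrees of freedom), and Benjamini-Hochberg adjustment over all kept genes at 0.05. The code was checked on simulated data. SEs came from dividing absolute log2 fold changes by the root of F, and CPM and RPKM were computed here from the deposited counts, TMM totals and union exon length. Alternatives used DESeq2 1.42.0, limma-voom (limma 3.58.1), other filters and normalization, a replicate block and each library left out. Members, lists and naming rules were chosen with earlier results of these data known: within each role the 3 members with the smallest p, and of the 4 lists of other ER genes the 2 with the smallest p, are given in full. GC content is the mean over GENCODE M21 transcripts matched by RefSeq accession. Promoter windows come from RefSeq, GRCm38.p6, matched by symbol; no coordinate was moved between builds.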

Additional observations from a re-analysis of the deposited data

How the results depend on the processing

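Over 13 alternatives the 32 members gave 416 log2 fold changes, of which 393 kept their direction and their side of the threshold, 18 changed sign and 5 passed the threshold with the same direction (Sec61a1 under 3 alternatives, Manf under 2). The count of members called lower, 0 as reported, was 1 by DESeq2, and 1 higher and 1 lower with no filter on low counts; leaving out each library in turn gave 0 to 1 higher (Manf) and 0 to 1 lower (Sec61a1), the calls coming without high-fat replicate 1, with medians of the members from 0.045 to 0.14. For the other ER genes these ranges were 0 to 1 higher (Fkbp14 without high-fat replicate 2), 0 to 1 lower (Wfs1 without high-fat replicate 1) and medians from 0.013 to 0.047, and the median was -0.0039 after removing the trend of GC content and exon length. The causes were not tested. Sign changes on leaving out a library gave ranges of -0.035 to 0.12 for Atf6, -0.012 to 0.20 for Derl2, -0.060 to 0.20 for Dnajb9, -0.27 to 0.065 for Ern1, -0.049 to 0.11 for P4hb, -0.0034 to 0.14 for Pdia6, -0.23 to 0.15 for Sdf2l1 and -0.18 to 0.31 for Sec61b. After removing the GC content and length trend Dnajb9 was -0.11, Pdia3 -0.017, Pdia6 -0.010, Ppp1r15a 0.0077, Sdf2l1 0.051 and Ssr2 0.026. Libraries with the same replicate number deviated together only weakly (r = 0.0888), so the numbers were not taken as pairs. With 2 libraries per diet, deviations from the diet's mean give the same r for either number by construction. With a replicate block 0 members were called higher and 0 lower, with a median of 0.077. With 2 libraries per diet the median 95% interval reached 0.238 to each side of a member's log2 fold change, which limits what could be detected.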
